A study of Mus musculus with 12 samples.

Results

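The 500 largest stitched clusters of distal H3K4me1 peaks in differentiating C2C12 cells are described here. The peaks of 3 methylation states of histone H3 lysine 4 (H3K4me1, H3K4me2 and H3K4me3) that lie within them are described too. Distal means only that a peak overlapped no H3K4me3 peak, as no promoter annotation was used. C2C12 is an established line of mouse myoblasts, which form multinucleate myotubes when serum is lowered. Cells were kept for 48 h (day 2) in medium with horse serum and either vehicle or S2101, an inhibitor of the demethylase LSD1, at 10 µM, and each mark was profiled by ChIP-seq in 1 library per treatment. Both arms were the same line, were induced to differentiate and carry no genetic change that the labels name. The labels place H3K4me3 in experiment 2 and the other marks in experiment 1, so mark and experiment cannot be told apart where H3K4me3 is set beside the other marks. The clusters were chosen on measured values. Vehicle H3K4me1 peaks that overlapped no H3K4me3 peak of either treatment were joined when 12.5 kb or less lay between them, the peak bases of each cluster were summed without the gaps, and the 500 clusters with the most bases were kept of 12136 in all. The vehicle H3K4me1 values below are therefore a description of the choice. The S2101 H3K4me1 list and both H3K4me2 lists played no part in it. With 1 library per mark and treatment, no difference has a replicate check and no test between treatments was possible.

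H3K4me1 is deposited mainly by the methyltransferases KMT2C and KMT2D and marks enhancers, both active and poised. H3K4me2 is found at enhancers and promoters, and H3K4me3 marks active promoters. LSD1 (Kdm1a) removes methyl groups from H3K4me1 and H3K4me2 and cannot act on H3K4me3. Long runs of closely spaced enhancers are a known feature of genes that define a cell's identity. They are usually found by stitching peaks of acetylated H3K27, Mediator or a master transcription factor, and stitched H3K4me1 alone says nothing of enhancer activity.

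The distal set held 33876 of the 40432 vehicle H3K4me1 peaks. The 500 clusters made up 4.12% of all clusters and held 7469 of the distal peaks (22.0%) and 28.7% of their bases, or 6.53 Mb. A cluster had a median of 13 peaks (range 1 to 57) with a summed length of 10930 bp (range 7518 to 67865) over a median span of 37589.5 bp. Peaks filled a median of 30.9% of the span. The peaks of these clusters were wider than those of the other clusters, with a median of 674 against 515 bp, and had higher scores, 250.53 against 172.03. The score is the authors' value for each peak and ranks peaks within 1 list only. Of the 11636 other clusters 48.8% consisted of 1 peak, and of the 500 only 1 did. The cluster of rank 500, on chromosome 19 (32393410 to 32421553), held 7518 bp in 10 peaks, and the first one left out, on chromosome 7 (119902885 to 119967036), 7505 bp in 12 peaks. There was no step in length at this boundary, as the clusters of rank 499 and 502 held 7546 and 7495 bp.

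**Figure D1:**
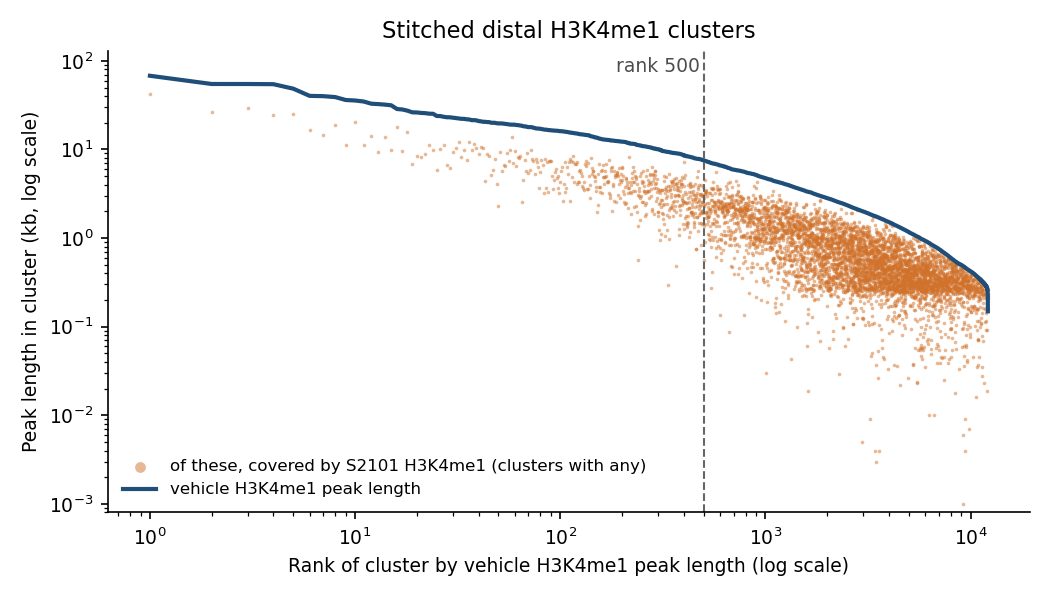
Summed vehicle H3K4me1 peak length per cluster (line, kb, log scale) against the rank of all 12136 clusters (log scale), with the length of those peaks that S2101 H3K4me1 peaks covered (points, for clusters with any). The line passes the dashed boundary at rank 500 at 7518 bp without a step, and all 500 clusters to its left have a point.

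The 10 clusters with the most vehicle H3K4me1 lay on 6 chromosomes, 3 of them on chromosome 15. The first, on chromosome 15 (77616572 to 77743002), held 71277 bp of H3K4me1 in the span with vehicle and 47265 bp with S2101, 25168 and 7994 bp of H3K4me2, and 5718 and 6987 bp of H3K4me3. In this cluster the H3K4me1 length with S2101 was 0.663 times that with vehicle, above the median of the 500. The third, on chromosome 8 (87222904 to 87320004), held 67656 and 38869 bp of H3K4me1, 29575 and 11437 bp of H3K4me2, the most of any member, and 7120 and 8137 bp of H3K4me3. The fourth, on chromosome 11 (117066228 to 117215834), had the longest span, 149607 bp, and the most peaks, 57. It held 66311 bp of H3K4me1 with vehicle and 37245 bp with S2101, 28428 and 11053 bp of H3K4me2, and 9149 and 9349 bp of H3K4me3. These clusters mixed distal stretches with H3K4me3 sites between them, and in each of them H3K4me1 and H3K4me2 were shorter and H3K4me3 longer with S2101.

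A different makeup was seen in the second cluster, on chromosome 14 (26282157 to 26384985). It held 54801 bp of H3K4me1 with vehicle and 29906 bp with S2101, 6554 and 279 bp of H3K4me2, and no H3K4me3 with either. The nearest H3K4me3 peak lay 388 bp outside its edge, as the map of clusters shows. Another of the 10 without H3K4me3, on chromosome 15 (58806194 to 58864823), held 35678 and 24471 bp of H3K4me1. Its 5 vehicle H3K4me2 peaks covered 5266 bp, and S2101 had no H3K4me2 peak there. Among the 10, its H3K4me1 ratio of 0.686 was the highest, and the lowest was 0.353, for a cluster on chromosome 5 (125585856 to 125669383) that held 39087 bp with vehicle and 13787 bp with S2101. Another cluster on chromosome 14 (26527410 to 26636866) held 40265 and 17683 bp of H3K4me1, 9833 and 2963 bp of H3K4me2, and 3513 and 3622 bp of H3K4me3. The remaining 3 were on chromosome 15 (83219627 to 83330429, 48871 and 28319 bp), chromosome 4 (45447584 to 45531755, 42180 and 16435 bp) and chromosome 11 (117775418 to 117878233, 45591 and 22473 bp). In all 10, the widest vehicle peak was overlapped by an S2101 peak. The next longest spans after that of rank 4 were on chromosome 19 (7119025 to 7255723, 136699 bp), chromosome 2 (29477714 to 29607349, 129636 bp) and chromosome 3 (27489843 to 27618014, 128172 bp). They were sparser, with 17.5, 26.8 and 12.1% of the span in peaks, and had H3K4me1 ratios of 0.352, 0.409 and 0.289.

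**Figure D2:**
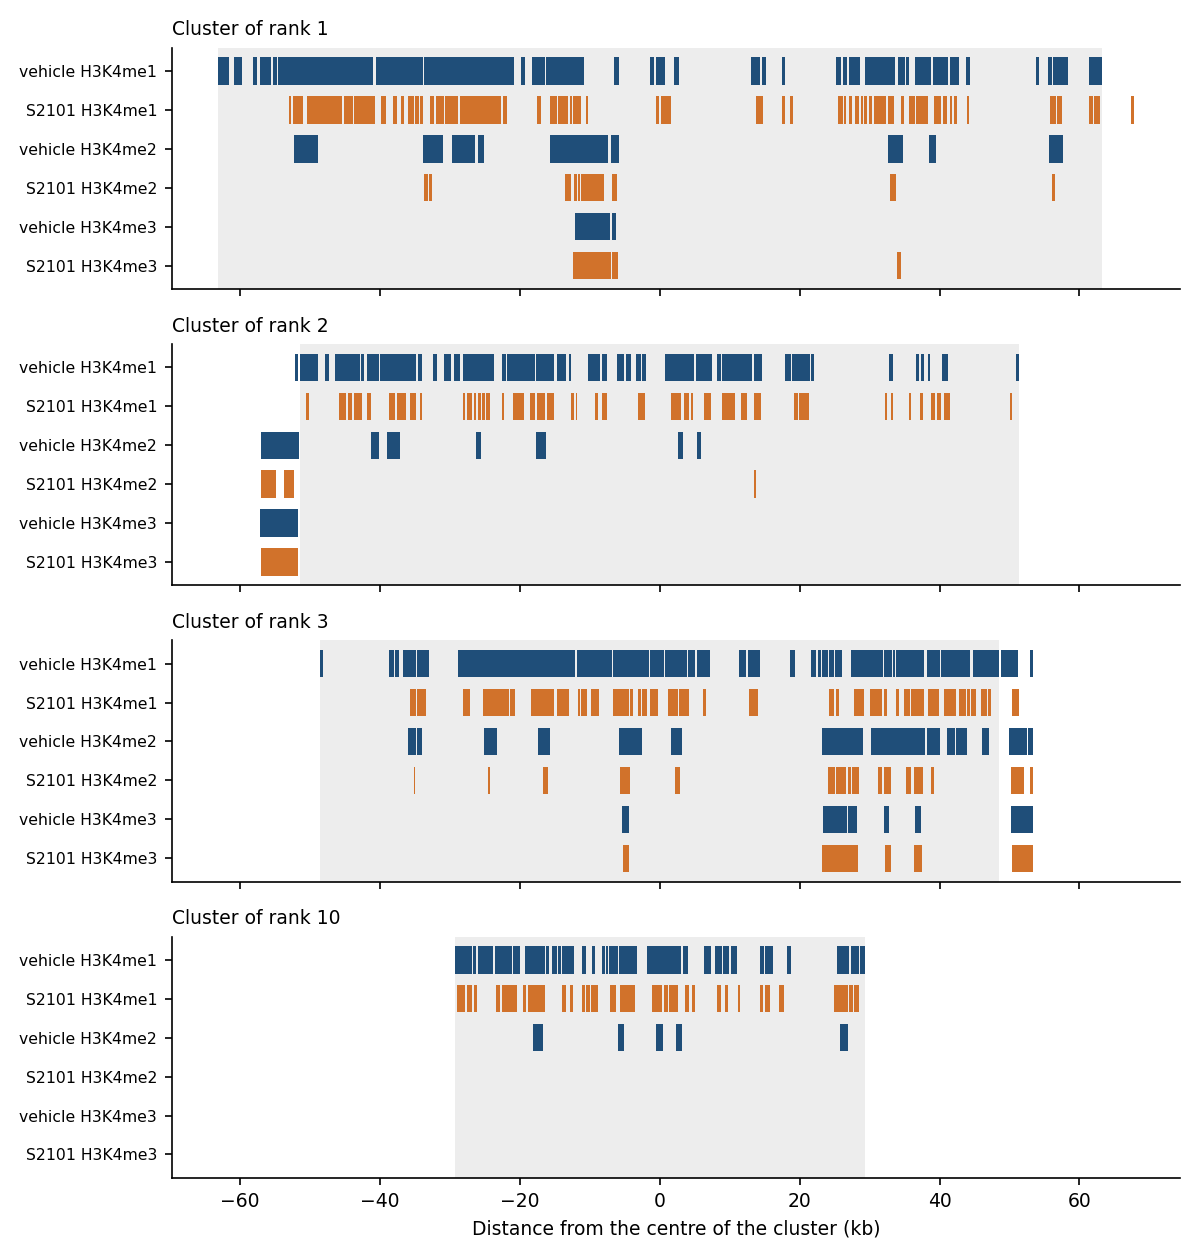
Peaks of the 6 lists (vehicle blue, S2101 orange) in 4 of the 10 largest clusters, by distance from the centre of the cluster in kb, with the span shaded and 5 kb shown on either side. Long vehicle H3K4me1 blocks appear as several shorter S2101 peaks at the same places, and in the cluster of rank 10 the 5 vehicle H3K4me2 peaks have no S2101 counterpart.

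Every one of the 500 clusters held an S2101 H3K4me1 peak, and none held more S2101 than vehicle H3K4me1. Of all 12136 clusters, 45.2% held an S2101 H3K4me1 peak and 0.222% held more S2101 than vehicle bases. Spans with many peaks have more chances to hold one, and in the next 500 clusters by rank 498 did. The H3K4me1 length within the spans was 6.88 Mb for vehicle and 2.91 Mb for S2101. The ratio was 0.423, compared with 0.321 in the genome outside them. Per cluster the ratio had a median of 0.402 (quartiles 0.321 and 0.496, range 0.0964 to 0.988). The length was at least 2-fold lower with S2101 in 377 of the 500 clusters (75.4%), against 87.7% of all clusters, and at least 4-fold lower in 56 (11.2%), against 66.2%. In the next 500 clusters these counts were 404 and 128. The shortfall in listed length was thus smaller in the largest clusters than over all clusters, many of which had no S2101 peak at all.

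Of the 7469 vehicle peaks in the clusters, 50.9% were overlapped by an S2101 peak by at least 1 bp (95% Wilson interval 49.8 to 52.0%, which covers counting error only), beside 34.9% of all distal vehicle peaks and 30.4% of the 26407 peaks in the other clusters. The share in the 500 clusters was above that in the other clusters on all 19 autosomes and ran from 35.6 to 58.6% (SD 5.91 percentage points over autosomes, which are not replicates). In bases, S2101 peaks covered 36.0% of the clusters' vehicle peaks and 21.1% of those elsewhere. By successive 100 ranks inside the set, the share found again was 53.3, 52.1, 49.6, 47.7 and 48.8%, and the share of bases covered went from 40.1% in the first 100 clusters to 32% in the last. The share found again was 45.4% in the next 500 clusters and 18.9% in the lowest-ranked 11139 peaks, whose median score was 148.13.

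The share moved with the score of the vehicle peak, and a gap between the sets remained with the score held. In 10 groups of equal size by score, the share found again rose in the clusters from 17.0% in the lowest to 88.6% in the highest, and in the other clusters from 12.2 to 81.8%. With the score held in 20 bins, the share in the 500 clusters was higher by 7.58 percentage points, in all 20 bins. With peak width held it was higher by 9.05 points. Within single autosomes (up to 5 score bins each) the gap was above 0 on 18 of 19, with chromosome 8 the exception at −0.48 points. Set against the next 500 clusters alone, which was done after seeing the data, the score-held gap was 0.888 points. The gap therefore describes large clusters against small ones and is not particular to the first 500.

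**Figure D3:**
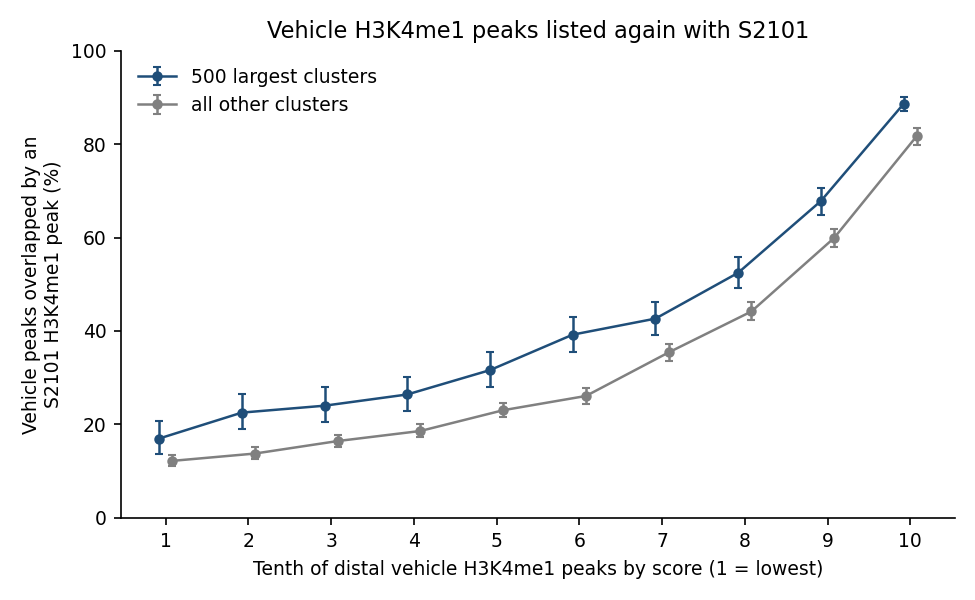
Share of distal vehicle H3K4me1 peaks overlapped by an S2101 H3K4me1 peak, by score in 10 groups of equal size (points with 95% Wilson intervals for counting error), for the 500 largest clusters and for all others. Both curves rise with score, and the 500 clusters lie above the others in each group, by 17.0 against 12.2% in the lowest and 88.6 against 81.8% in the highest.

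Inside a cluster the wide peaks were the ones listed again. The widest vehicle peak of a cluster (median 1994 bp) was overlapped by an S2101 peak in 452 of 500 clusters (90.4%). In the next 500 clusters by rank it was overlapped in 396 (79.2%, median width 1438.5 bp). Over all clusters the share was 34.3%, and the median width of the widest peak was 618 bp. For the 2 next widest peaks in the 500 largest clusters the shares were 79.6 and 75.2% of 499 clusters. The narrowest peak (median 324 bp) was overlapped in 100 of 500. Median scores fell along the same order, from 949.96 to 115.295. Peaks at either end of a cluster were found again in 43.9% of 998 cases and inner peaks in 52.0% of 6470, in clusters of 3 peaks or more. Their median scores were 218.48 and 256, and with the score held the end peaks were lower (gap −3.12 points), in 12 of 20 bins. Peaks less than 250 bp from another peak of the cluster were found again in 57.9% of 3884 cases, and those at 2000 bp or more in 36.8% of 1033, where the scores were also lower (medians 286.045 and 203.89).

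S2101 peaks were narrower than the vehicle peaks they overlapped. Among 2567 pairs in the clusters with a single counterpart on either side, the median ratio of S2101 to vehicle width was 0.592 (quartiles 0.418 and 0.803), and S2101 was the narrower in 88.6%. In the other clusters these values were 0.619 and 86.1%. A vehicle peak of the clusters was split over 2 or more S2101 peaks in 855 cases (11.4%). The distance from the first to the last S2101 peak, with all gaps included, was a median of 86.6% of the span. At the same joining distance of 12.5 kb the S2101 peaks formed 1 cluster in 303 of the spans, 2 in 162 and 3 or more in 35. S2101 H3K4me1 peaks over H3K4me3 were counted too, and these counts are not given for other clusters.

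The clusters kept very different fractions of their vehicle H3K4me1 bases. The 5 with the highest coverage by S2101 were 3 on chromosome 10, 1 on chromosome 11 and 1 on chromosome 15. A cluster on chromosome 10 (79394701 to 79413538) held 8637 bp with vehicle and 7656 bp with S2101, and all 6 of its vehicle peaks were found again. Its H3K4me2 covered 1492 and 1366 bp. The cluster on chromosome 15 (83397333 to 83407041) held 7827 and 6649 bp, with all 6 peaks found again and no H3K4me2 or H3K4me3 in either treatment. It lay within 100000 bp of the fifth cluster by rank, whose vehicle bases were covered to 51.9%. The other 2 on chromosome 10 were at 80864548 to 80898666 (71.9% covered) and at 80398808 to 80430655 (69.3%).

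The highest coverage of all, 98.8%, was that of the single-peak cluster on chromosome 11 (3040439 to 3048917), with 8479 bp in vehicle and 8381 bp with S2101. This cluster stood apart from the rest of the set. Its score of 166.02 was the lowest top score among the 500, whose median was 1005.65, and it carried neither H3K4me2 nor H3K4me3. Besides it and the clusters with 6 of 6 peaks, 1 more had every vehicle peak found again, on chromosome 3 (87781402 to 87791844, 8 peaks), named after its values were seen. That makes 4 of 500 clusters, or 0.8%, against 11.6% of all clusters, most of which have few peaks.

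At the other end, a cluster on chromosome 11 (54818507 to 54843435) held 11203 bp of vehicle H3K4me1 in 14 peaks and 1105 bp with S2101, and 2 of its peaks were found again. Its widest peak, of 1676 bp with a score of 856, was among those without a counterpart, and no H3K4me2 or H3K4me3 lay in the span. A cluster on chromosome 1 (39977628 to 40006502) held 9965 and 961 bp, the lowest ratio of the set (0.0964), and its 1031 bp of vehicle H3K4me2 had no S2101 counterpart. On chromosome 16 (8833281 to 8864655) the lengths were 7895 and 1210 bp of H3K4me1, and 1625 and 0 bp of H3K4me2. The other 2 held H3K4me3 with both treatments. The one on chromosome 13 (34163898 to 34224496) held 11799 and 1639 bp of H3K4me1, with 7058 and 7867 bp of H3K4me3 and 10052 and 5332 bp of H3K4me2. The one on chromosome 2 (60680145 to 60722770) held 10467 and 1567 bp of H3K4me1, with 4039 and 3932 bp of H3K4me3. The highest vehicle score in each of these 5 clusters was 682.29 to 856, below the median of the set.

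S2101 peaks in the clusters were mostly inside vehicle peaks. Of the 5470 S2101 H3K4me1 peaks that touched a span, 89.0% overlapped a vehicle peak, compared with 66.6% of the 15194 elsewhere. The rule chose spans for their vehicle H3K4me1 length, so it favoured a higher share inside them. Of the S2101 bases in the spans, 85.1% lay within vehicle H3K4me1. S2101 peaks without any vehicle peak were found in 307 of the 500 clusters, with a median width of 322 bp and a median score of 121.25 in their list. This count is not given for other clusters, and longer spans have more chances to hold such a peak. S2101 length outside vehicle peaks had a median of 710.5 bp in the 500, 299 bp in the next 500 and 0 bp over all clusters. The most S2101 length outside vehicle peaks, 5230 bp, was in the fourth-largest cluster on chromosome 11. Next came a smaller cluster on chromosome 12 (88130804 to 88177343) with 4058 bp, with 14776 bp of H3K4me1 for vehicle and 9452 bp for S2101, and 10141 and 1982 bp of H3K4me2. A cluster on chromosome 5 (36635745 to 36736416) had 3646 bp of this kind. In the clusters of rank 1 and 10 it was 3761 and 3925 bp.

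H3K4me2 was present in most of the clusters with vehicle and in fewer with S2101. A vehicle H3K4me2 peak lay in 449 of 500 spans (89.8%, Wilson interval 86.8 to 92.2%), against 29.9% of all clusters and 73.8% of the next 500. An S2101 H3K4me2 peak lay in 316 (63.2%), against 14.9% of all clusters and 46.6% of the next 500. Both treatments had H3K4me2 in 312 clusters, vehicle alone in 137, S2101 alone in 4, and neither in 47. Over all clusters the shares of these classes were 13.6, 16.3, 1.31 and 68.8%, and in the next 500 they were 45.2, 28.6, 1.4 and 24.8%. The share with vehicle alone, 27.4% of the 500, was thus near that of the next 500. The spans of the 500 were longer, with a median of 37589.5 bp against 1280.5 bp over all clusters. Longer spans have more chances to hold a peak. The H3K4me2 length in the spans was 2.07 Mb for vehicle and 0.621 Mb for S2101. The ratio was 0.30, compared with 0.478 in the genome outside them, where most H3K4me2 peaks lay over H3K4me3. Spans of the next 500 clusters held 929121 bp with vehicle and 296697 bp with S2101. Those of all other clusters held 4383310 and 1385720 bp. A shortfall of this kind was thus not particular to the 500. In 397 of the 449 clusters with vehicle H3K4me2 (88.4%) the S2101 length was at least 2-fold lower, against 84.1% of all clusters with vehicle H3K4me2, so this share was near the background.

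**Figure D4:**
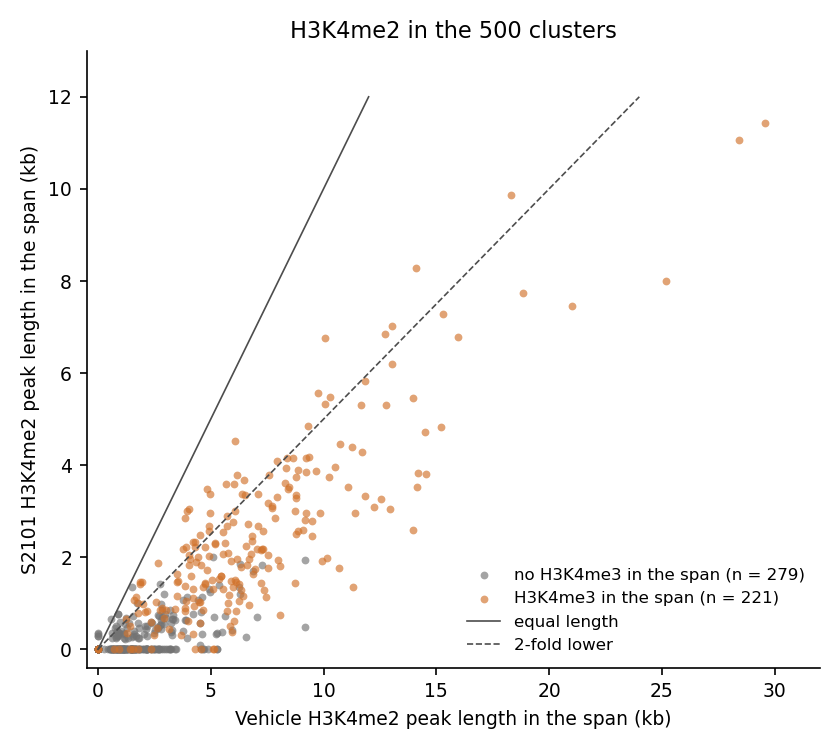
H3K4me2 peak length in the span of each of the 500 clusters, vehicle on the horizontal and S2101 on the vertical axis (kb), coloured by whether an H3K4me3 peak lies in the span; lines mark equal length (solid) and a 2-fold lower length with S2101 (dashed). Most clusters lie below the dashed line, and those with S2101 H3K4me2 at 0 are mainly clusters without H3K4me3.

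The H3K4me2 peaks of the clusters differed from the rest in how many lay over H3K4me3. Of the 1378 vehicle H3K4me2 peaks that touched a span, 30.3% lay over H3K4me3, and elsewhere in the genome 79.0% did. Over H3K4me3, the share with an S2101 counterpart was 88.7% of 417 in the clusters and 89.1% of 15863 elsewhere. Outside H3K4me3 it was 27.4% of 961 in the clusters (Wilson interval 24.6 to 30.3%) and 27.0% of 4206 elsewhere (25.6 to 28.3%). Taken within each class, the clusters differed from the rest by less than 1 percentage point. With the score held, however, the H3K4me2 peaks outside H3K4me3 had a lower share found again in the clusters (gap −6.82 points), in 14 of 20 score bins. Their median score was 201.81 against 163.13 elsewhere. The sign is the opposite of that for H3K4me1.

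Of the 961 vehicle H3K4me2 peaks in the clusters that lay outside H3K4me3, 96.9% overlapped an H3K4me1 peak of the cluster by at least 1 bp. Counting any vehicle H3K4me1 peak, 938 of the 961 overlapped one, and elsewhere 2750 of 4206 did. The rule chose spans for their vehicle H3K4me1 length, so it favoured a higher share inside them. In bases, 47.1% of all vehicle H3K4me2 in the spans lay in the clusters' own distal H3K4me1 peaks and 33.5% in H3K4me3. Seen from the other side, 20.5% of the clusters' H3K4me1 peaks overlapped vehicle H3K4me2, beside 17.4% of all distal peaks and 16.5% of those in the other clusters. With the score held the direction turned: the share was lower in the 500 clusters than in the others (gap −2.08 points), in 18 of 20 bins. S2101 H3K4me2 was overlapped by 5.01% of the clusters' H3K4me1 peaks, near the 4.32% in the other clusters and the 4.77% in the next 500. Of the 1533 H3K4me1 peaks over vehicle H3K4me2, 20.4% were over H3K4me2 with S2101 as well, near the 21.0% of 4349 such peaks in the other clusters. An S2101 H3K4me1 peak overlapped 68.6% of the 1533, against 41.6% of the 4349, a comparison without the score held. Among the 1220 that had no S2101 H3K4me2, 67.0% were still overlapped by an S2101 H3K4me1 peak by at least 1 bp. S2101 H3K4me1 covered 45.7% of the bases of the 1220. Whether it lay over the bases that had held vehicle H3K4me2 was not measured. H3K4me1 peaks without vehicle H3K4me2 were found again in 46.3% of 5936 cases. With the score held the difference was 2.50 points, above 0 in 11 of 20 bins.

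Clusters with different H3K4me2 had similar H3K4me1 ratios. The median H3K4me1 ratio was 0.405 in the 312 clusters with H3K4me2 in both treatments, 0.40 in the 137 with vehicle H3K4me2 only, and 0.395 in the 47 with none. The largest cluster without any H3K4me2, chosen after its values were seen, lay on chromosome 11 (88303240 to 88403569) and held 25671 bp of H3K4me1 with vehicle and 11175 bp with S2101. Besides the cluster of rank 10, the largest with vehicle H3K4me2 and none with S2101 were on chromosome 5 (36635745 to 36736416, 670 bp with vehicle) and chromosome 2 (93266476 to 93297287, 4702 bp with vehicle). More S2101 than vehicle H3K4me2 was seen in 5 of 500 clusters, against 1.47% of all, each with no more than 658 bp. They lay on chromosome 11 (119638283 to 119686842), chromosome 17 (56155509 to 56173671), chromosome 18 (32498526 to 32526139), chromosome 1 (135837087 to 135876059) and chromosome 19 (the cluster of rank 500), and were also picked out after their values were seen.

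The clusters with the most vehicle H3K4me2, apart from ranks 3, 4 and 1, were on chromosome 6 (31001182 to 31081481) and chromosome 3 (88291882 to 88332366). The former held 21012 bp of H3K4me2 with vehicle and 7460 bp with S2101, 26678 and 8860 bp of H3K4me1, and 9290 and 10264 bp of H3K4me3. The latter held 18823 and 7732 bp of H3K4me2, 16430 and 6008 bp of H3K4me1, and 7195 and 8623 bp of H3K4me3. Both had H3K4me1 ratios below the median of the set.

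H3K4me3 was kept out of the member peaks by the rule but could lie between them. The median distance from a span to the nearest H3K4me3 peak was 581 bp, counted as 0 for H3K4me3 inside it. A peak of either treatment lay in 221 of the 500 spans (44.2%), against 6.95% of all clusters, whose spans are shorter. H3K4me3 was present with both treatments in 196 clusters, with vehicle only in 5, with S2101 only in 20 and with neither in 279. Over all clusters the shares of these classes were 5.96, 0.14, 0.849 and 93.1%. The H3K4me3 length in the spans was 0.618 Mb for vehicle and 0.710 Mb for S2101. The ratio was 1.15, beside 1.10 in the genome outside them. Spans of the next 500 clusters held 304146 bp with vehicle and 349450 bp with S2101, and those of all other clusters 1268260 and 1465730 bp. The greater S2101 length was thus not particular to the 500. Of the 304 vehicle H3K4me3 peaks in the spans 94.1% had an S2101 counterpart (Wilson interval 90.8 to 96.2%), and of 13285 elsewhere 98.8%. Of the 333 S2101 peaks 81.1% had a vehicle counterpart (76.5 to 84.9%), and of 13991 elsewhere 91.8%. H3K4me3 peaks in the clusters had lower scores, with a median of 2529.7 against 3100 in the vehicle list. The part of the score in these shares was not tested.

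The most H3K4me3 was in a cluster on chromosome 11 (98779371 to 98830551), 9852 bp with vehicle and 11777 bp with S2101. Its H3K4me1 covered 23524 and 4800 bp, at a ratio of 0.204, and its H3K4me2 18321 and 9877 bp. A cluster on chromosome 12 (88197932 to 88241842) held 9113 and 10499 bp of H3K4me3, and one on chromosome 10 (79532406 to 79584154) 8719 and 9989 bp. The latter held 26406 and 14171 bp of H3K4me1, so clusters rich in H3K4me3 did not share 1 outcome for H3K4me1. The largest clusters with H3K4me3 in S2101 only were on chromosome 2 (29477714 to 29607349, 596 bp) and chromosome 4 (154487763 to 154591387, 752 bp), again chosen after their values were seen.

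Clusters with and without H3K4me3 in the span had different H3K4me2 and like shares of H3K4me1. Vehicle H3K4me1 peaks were found again in 50.9% of 3699 cases in the 221 clusters with H3K4me3 and in 50.9% of 3770 cases in the 279 without. With the score held the gap was 0.0266 points, above 0 in 11 of 20 bins. S2101 H3K4me2 was present in 94.1% of the former and 38.7% of the latter, while vehicle H3K4me2 was present in 98.6 and 82.8%. The vehicle H3K4me1 peaks that the rule had left out for overlapping H3K4me3 give a further comparison. In the spans of the clusters 42.8% of 400 such peaks were overlapped with S2101 (Wilson interval 38.0 to 47.6%), and elsewhere 21.7% of 6156 (20.6 to 22.7%). With the score held the gap was 13.3 points, in all 7 bins that could be compared.

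The clusters were spread unevenly over the chromosomes. Chromosome 15 had 64 of them, 12.8% of the set with 9.56% of all distal H3K4me1 bases, and chromosomes 2 and 11 had 57 and 55. Chromosome 7 had 8, or 1.6% of the set with 3.36% of the bases, and chromosome X had 1 (93302470 to 93335086). The share of vehicle H3K4me1 bases that S2101 covered in the clusters was highest on chromosome 15, 46.1%, and lowest on chromosome 7, 21.7% (33.4 ± 6.18%, SD over 19 autosomes). In the other clusters of the same chromosomes it was 31 and 13.6%, again the highest and the lowest of the autosomes. The largest cluster on chromosome 7 (29686644 to 29757869) held 23092 bp of H3K4me1 with vehicle and 7367 bp with S2101. Without chromosome 15, the share of vehicle peaks found again was 49.4% and that of bases covered 34.0%. The number of copies of each chromosome in these cells is not in the files, and its part in these values was not tested.

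**Figure D5:**
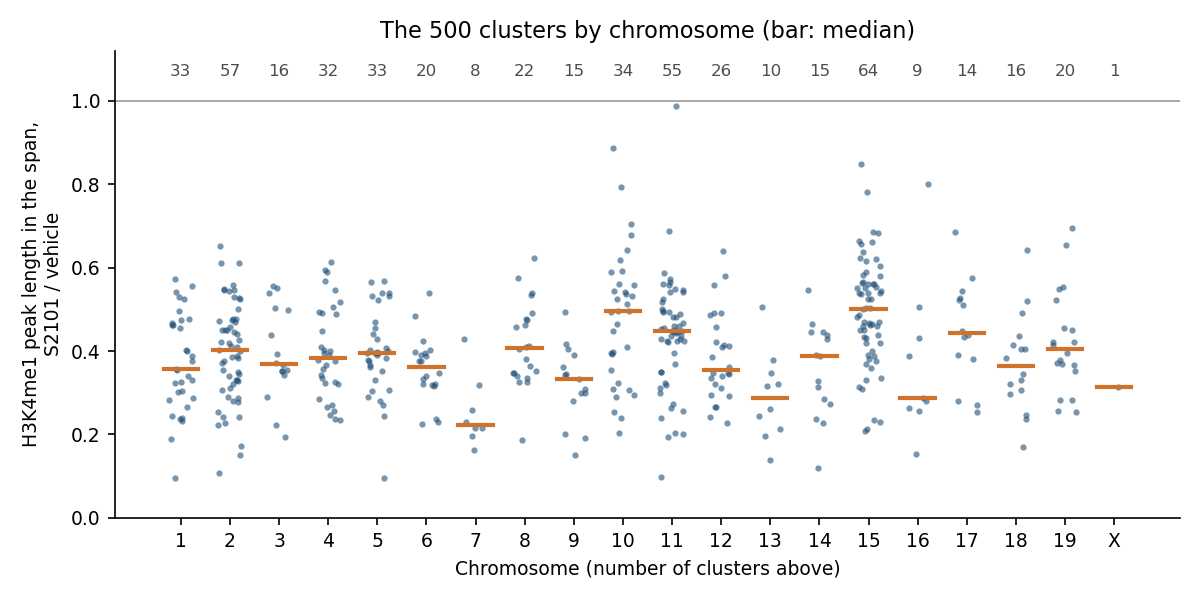
Ratio of S2101 to vehicle H3K4me1 peak length in the span, one point per cluster, by chromosome, with the median as a bar and the number of clusters above. All 500 points lie below 1; the medians run from 0.222 on chromosome 7 to 0.502 on chromosome 15.

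Several clusters had another one nearby. Of the 500, 136 lay within 100000 bp of another and formed 62 groups, 10 of them of 3 or more clusters. The 2 groups of 4 were on chromosome 1 (137427039 to 137762261) and chromosome 11 (119512025 to 119871915). S2101 covered 29.1% of the vehicle bases in the former, with its clusters between 17.2 and 42.1%, and 44.9% in the latter, between 42.2 and 48.8%. The group of 3 on chromosome 15 (58806194 to 59001722), which includes the cluster of rank 10, held 71570 bp of vehicle peaks, of which 57.7% were covered, with a range of 56.9 to 60.7%. On chromosome 2 (128135457 to 128296317) a group of 3 was covered to 20.3%, with a range of 10.4 to 32.7%. Neighbours were thus alike in some groups and unlike in others.

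The choice of the clusters on the vehicle list favours places where that list is long. The rule was therefore repeated on the S2101 H3K4me1 list. Its 500 largest clusters held between 3105 and 45870 bp of S2101 peaks (median 4646 bp). A member overlapped one of them in 351 of 500 cases (70.2%), in 94 of the first 100, and 365 of the 500 S2101-chosen clusters (73.0%) overlapped a member. All of the S2101-chosen clusters held vehicle H3K4me1, and 486 of 500 held more vehicle than S2101 bases. Their median ratio of S2101 to vehicle length was 0.588 (quartiles 0.496 and 0.712), higher than in the vehicle-chosen clusters, and 14 held more S2101 than vehicle bases. The direction was thus the same from either list, while its size depended on the list that chose the clusters.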

How the data were processed

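Peak lists of 6 of the 12 samples were used, 1 per mark and treatment. The 4 inputs and 2 H3 samples were not analysed here. Per the file headers, the authors called peaks with MACS in Galaxy, 1 list per library, and deposited a score per peak (100 to 3233.06 over the lists), whose quantity the headers do not name. The submitters' processing notes name Bowtie2, deepTools and the mouse build mm9. The caller's version, settings and use of inputs were not given in the sources used here. Read depth is unknown, no value was scaled, and library and treatment cannot be told apart. The labels name no replicates.

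Coordinates are printed 1-based. The gene table at hand is of another build, so no gene names, markers or sequences were attached. Overlap means at least 1 bp. Lengths are union bases within the span from the first to the last member peak. Score-held gaps used 20 bins of equal size, left out bins with under 20 peaks on either side, and weighted bins by both sides; the gap was tested on simulated data, and overlaps and stitching were checked against bedtools. Named clusters are the 10 with the most vehicle bases, the 5 extremes of S2101 coverage in each direction, the 5 highest of S2101 length outside vehicle peaks, of H3K4me2, of H3K4me3 and of span, and the pair at the threshold. The members, comparisons and lists were chosen with earlier results of these data known. Python 3.11.15, numpy 2.4.6, pandas 2.3.3 and matplotlib 3.10.9 were used.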

Additional observations from a re-analysis of the deposited data

How the results depend on the processing

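Of the values under other settings, 38 stayed within the spread of the main value and 27 moved further. The spread was the counting interval for shares of peaks and clusters and 1.5 times for counts. For shares of bases and the score-held gap it was the SD over autosomes. A reversal could be found only for the score-held gap, which kept its sign. With the treatments exchanged, the shares are those of S2101 peaks or bases covered by vehicle, a different quantity. The share of vehicle H3K4me1 peaks found again (50.9%) was 56.1% with a joining gap of 5 kb, 47.7% with 25 kb, 98.4% for single peaks without stitching, 49.0% for 1000 clusters, 37.6% at scores of 200 or more, 65.7% with lists of equal length, 29.6% with at least 50% of the peak covered, 49.4% without chromosome 15 and 85.8% with the treatments exchanged. The share of bases covered (36.0%) was 53.2% without stitching, 27.1% at scores of 200 or more and 82.4% with the treatments exchanged. The score-held gap between the 500 and the other clusters (7.58 points) was 20.5 with nothing held and 0.888 against the next 500 clusters. No cluster had more S2101 than vehicle H3K4me1 except 1 at a joining gap of 25 kb; with the treatments exchanged, 486 had more vehicle than S2101. The share of clusters with vehicle H3K4me2 (89.8%) was 82.2% and 94.0% with gaps of 5 and 25 kb, 51.6% without stitching, 93.2% for 250 and 81.8% for 1000 clusters, 71.8% at scores of 200 or more and, for S2101 H3K4me2 in S2101-chosen clusters, 58.6%. The share of vehicle H3K4me2 bases covered by S2101 (28.4%) was 18.3%, 36.5% and 13.2% with 5 kb, 25 kb and no stitching, and 94.4% with the treatments exchanged. The settings that left out chromosome 15 or used the next 500 clusters were added after the data had been seen. No paired analysis was possible because each mark and treatment has 1 library. Depth is unknown, so what it limits cannot be given.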
